A study of Mus musculus with 221 samples.

Results

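The basement membrane is the thin sheet of matrix on which endothelium sits, and 10 genes of this sheet and the matrix around it were followed here through the endothelial-to-hematopoietic transition (EHT) of the mouse embryo. They are Col4a1, Col4a2, Lama4, Lamb1, Lamc1, Nid1, Hspg2, Fn1, Sparc and Hapln1. The transcripts were taken by gene symbol, which gave 10 of the 78317 genes and 66 annotated isoforms in the table of nanopore long reads. Each library was the Smart-seq2 cDNA of 1 sorted cell of a reporter embryo, carrying Gfi1-GFP or Runx1b-RFP or both on a C57BL/6JOlaHsd background crossed to CD-1 females, with no treatment. Hemogenic endothelium (HE), the endothelium that gives rise to blood, came from the aorta-gonad-mesonephros region (HE-AGM) and from the yolk sac, where the labels separate an artery-associated population (HE-YSA) from one of the capillary plexus (HE-YSP). Each of these 3 populations has an early and a late cluster. The other clusters are HE-Hb, labelled from the AGM and placed by the study in the blood cell clusters of the aorta, and the yolk sac progenitor clusters p1 and p2. Yolk sac cells were sorted at E9.0, E9.5 or E10.5 as KIT+ CD31+ RUNX1+ HE without CD41 or CD45. AGM HE was sorted at E9.5 or E10.5 as KIT- CDH5+ RUNX1+ without CD41 or CD45, and the day of a single AGM cell is mostly not in its label.

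Type IV collagen and laminin each form a network in the basement membrane, and nidogen and the heparan sulfate proteoglycan perlecan tie the networks together. Fibronectin is a fibrillar matrix protein of growing vessels that cells hold through integrins, and SPARC is a secreted glycoprotein that binds collagen. HAPLN1 is a link protein that fixes proteoglycans to hyaluronan. Endothelial cells make and bind this matrix, and a cell that leaves the vessel wall to become a blood cell gives up its contact with it.

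Of 221 cells, 208 had at least 17595 estimated counts and were used. Summed counts were 3329331 in 49 HE-AGM cells, 1905457 in 52 HE-YSA cells and 1671886 in 49 HE-YSP cells, with 18131 to 125339 counts per cell over the 208. Levels are in CPM, the counts of a gene over the cells of a cluster scaled to a total of 1000000. A cluster is 1 sample without replicates, so no test was run, and intervals are 95% Poisson or binomial intervals that cover counting error only. Each population was spread over 3 nanopore runs. A run held other cells than the next, with another mix of embryonic days in the yolk sac, so the separate values of the runs show the spread between sets of cells and are not repeats of 1 sample. The clusters were drawn by the study from short reads of the same cDNA, so levels between them describe the clusters. All 18 endothelial markers were above 0 in each HE population, with summed levels of 4521, 5300 and 5738 CPM in HE-AGM, HE-YSA and HE-YSP.

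AGM and yolk sac cDNA came from different library projects, so tissue and project cannot be told apart. In 3 HE-YSA cells the library name gives another tissue or project than the cluster, and without them the members' median log2 ratio of HE-AGM to HE-YSA was 1.41 in place of 1.45. The AGM libraries held more long molecules. Transcripts of 5000 bases or more took 4.01% of HE-AGM counts, 1.53% of HE-YSA counts and 1.45% of HE-YSP counts, and the mean annotated length of a counted transcript was 1507, 1169 and 1162 bases. The same step shows in genes of every kind. Among 382 genes with counted transcripts of at least 5000 bases on average, the median log2 ratio of HE-AGM to HE-YSA was 1.42, while it was -0.28 for 2196 genes under 1000 bases. Of the 10 genes here, 6 have a mean counted length above 5000 bases, so each AGM to yolk sac ratio is set against the other genes of its own length class.

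In HE-AGM, 9 of the 10 genes were higher than in HE-YSA, and Sparc was lower. The median log2 ratio of the 10 was 1.45, against 0.19 for the 7209 genes that reached 20 CPM in either population. At a limit of 2-fold, 7 members were higher, where 28.6% of all genes were, and 1 was lower, where 13.6% were. Among genes of at least 5000 bases 67.5% were past 2-fold higher, so 7 of 10 is near the share of long genes. Over HE-YSP the median was 1.91 against 0.20 for 7311 genes, again with 7 members past 2-fold higher and 1 lower, where 30% and 15.7% of all genes passed and 70.8% of genes of at least 5000 bases were higher. Both comparisons use the same AGM cells. The medians of the 3 runs were 1.01, 0.76 and 2.53 over HE-YSA and 2.07, 1.88 and 1.56 over HE-YSP. The count over HE-YSA leaned on run 3, and without it 3 members were past 2-fold higher.

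**Figure D1:**
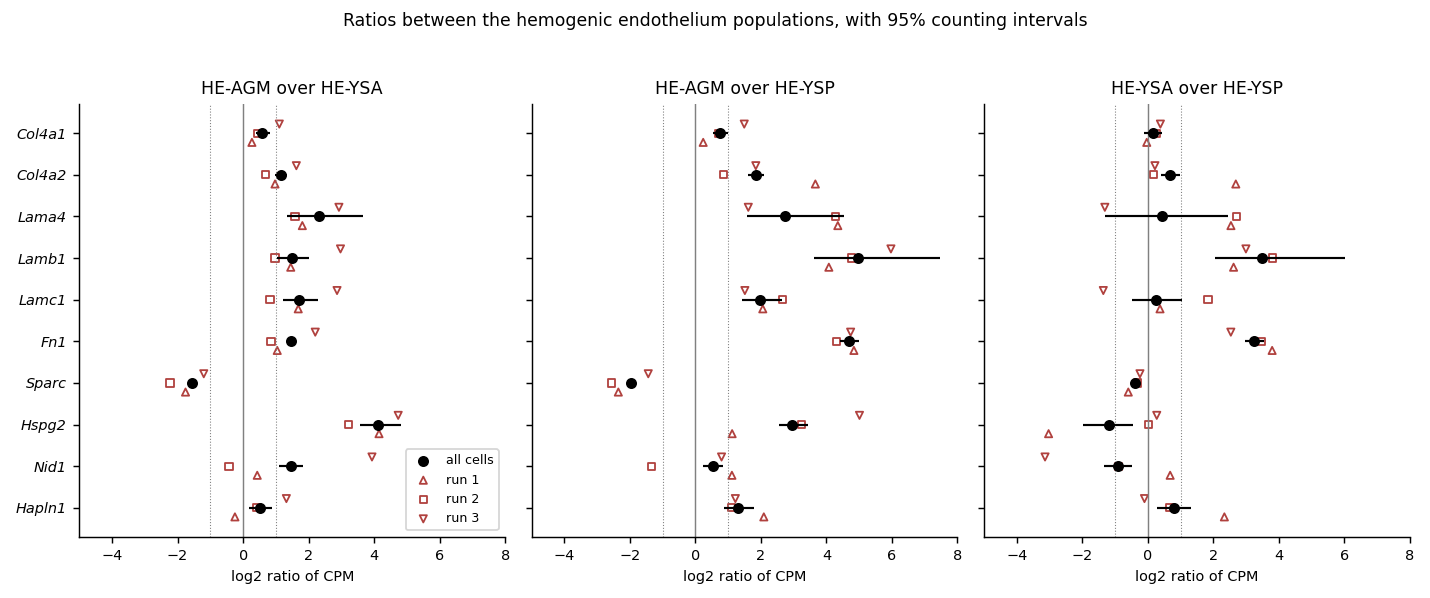
Log2 ratios of CPM for each member between the 3 HE populations. Black points are the summed cells with 95% counting intervals and open red symbols are the 3 nanopore runs. Sparc lies left of 0 in all 3 panels, while Fn1 and Lamb1 stand above 4 in HE-AGM over HE-YSP and above 3 in HE-YSA over HE-YSP.

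Between the yolk sac populations, where the length step is nearly absent, few members differed. The median log2 ratio of HE-YSA to HE-YSP was 0.35, against -0.01 for 6120 genes. Fn1 and Lamb1 were past 2-fold higher and Hspg2 was past 2-fold lower among the 8 members that reached 20 CPM, where 7.84% and 7.14% of all genes passed. Genes of at least 5000 bases, the class of Fn1, Lamb1 and Hspg2, had a median of 0.11 in this comparison. Of them 20.8% were past 2-fold higher and 17.3% lower.

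Fn1 encodes fibronectin, and it was counted in 49 of 49 HE-AGM cells, 50 of 52 HE-YSA cells and 20 of 49 HE-YSP cells. After each cell was thinned to 18000 counts, a depth that all 208 cells reached, the shares were 100%, 96.2% and 38.8%. Its level was 1647 CPM (1604 to 1691) in HE-AGM, 603 CPM (569 to 639) in HE-YSA and 63.5 CPM (51.9 to 76.7) in HE-YSP. Single cells ran from 571 to 4079 CPM in HE-AGM with a median of 1455, from 0 to 2319 CPM in HE-YSA with a median of 555, and from 0 to 485 CPM in HE-YSP with a median of 0. Every HE-AGM cell was thus above the highest HE-YSP cell, while HE-AGM and HE-YSA cells overlapped. The log2 ratio of HE-AGM to HE-YSP was 4.69 (4.42 to 4.99), with 4.84, 4.31 and 4.74 in the runs. In its length class, 13 of the 382 other genes had a higher ratio. Over HE-YSA, HE-AGM was higher by 1.45 (1.36 to 1.54), and 184 of the 381 other genes of the class were higher still, so the AGM to artery difference of Fn1 is that of a typical long transcript. Within the yolk sac, where the class median was 0.11, HE-YSA exceeded HE-YSP by 3.24 (2.96 to 3.55), with 3.80, 3.46 and 2.54 in the runs, and 5 of 196 other genes of the class were higher.

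The day of sorting goes with the level of Fn1 inside both yolk sac populations. In HE-YSP it was 144 CPM in 16 cells of E9.0, 72.8 CPM in 13 cells of E9.5 and 15.6 CPM in 20 cells of E10.5. In HE-YSA it was 1329 CPM in 2 cells of E9.0, 928 CPM in 14 cells of E9.5 and 459 CPM in 33 cells of E10.5. At each of the 3 days the artery population was the higher, and each value is of 1 pool of cells.

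The fibronectin transcript carries 2 exons that are used or skipped as a unit, named EIIIB and EIIIA, and a variable exon near its 3′ end with alternative splice sites. EIIIA and EIIIB each encode a whole fibronectin type III repeat, and their inclusion is typical of cellular as opposed to plasma fibronectin. The sequences of both exons are shown since the isoform shares below turn on them. They were read from the minus strand of GRCm38, EIIIB at chr1:71613763-71614035 and EIIIA at chr1:71603660-71603929, both coding.
EIIIB (273 bases): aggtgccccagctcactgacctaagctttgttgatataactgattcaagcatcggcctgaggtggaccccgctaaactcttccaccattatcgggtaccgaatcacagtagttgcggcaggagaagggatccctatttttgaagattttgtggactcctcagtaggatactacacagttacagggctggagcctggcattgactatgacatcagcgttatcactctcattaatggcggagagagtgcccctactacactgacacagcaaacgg
EIIIA (270 bases): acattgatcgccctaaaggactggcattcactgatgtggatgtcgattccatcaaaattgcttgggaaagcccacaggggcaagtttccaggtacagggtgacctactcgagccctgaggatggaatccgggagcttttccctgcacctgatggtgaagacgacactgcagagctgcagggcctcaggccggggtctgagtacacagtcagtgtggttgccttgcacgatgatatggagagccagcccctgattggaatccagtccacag

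Fn1 has 7 annotated full-length isoforms. Of the full-length counts, 73.5% (72.2 to 74.7) went to isoforms with EIIIA in HE-AGM, 86.2% (83.9 to 88.2) in HE-YSA and 69.7% (58.6 to 77.7) in HE-YSP. The HE-AGM runs gave 72.3%, 71.3% and 74.8% and the HE-YSA runs 86.7%, 84.6% and 87.4%, so these sets of runs do not overlap. In HE-YSP, with 86.8 full-length counts, they were 93.5%, 59.7% and 62.1%. The mean over cells with at least 5 full-length counts was 73.1% (SD 11.4, 49 cells) in HE-AGM and 84.3% (SD 15.2, 45 cells) in HE-YSA, so single cells of both populations overlap.

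The longest form of the variable exon, of 467 bases, took 76.3% of full-length counts for HE-AGM and 91.9% for HE-YSA, with runs of 74.2% to 80.4% and 85.5% to 95.4%. The 107-base form took 7.40% and 0.557%. EIIIB lies 4056 bases from the 3′ end, against 2691 for EIIIA and 1411 for the variable exon. Its share of 28.4% in HE-AGM and 40.6% in HE-YSA is not resolved, because Fn1-201, the isoform that holds it, and Fn1-214, which holds the same other optional exons, were given the same estimate in 37 of 49 HE-AGM cells and 49 of 50 HE-YSA cells. The isoforms of the 107-base form, Fn1-213 with EIIIA and Fn1-216 without it, likewise had the same estimate in 133 of 136 cells, so EIIIA is not resolved within that form. An equal split over the 7 isoforms would by itself give 57.1% with EIIIA, 14.3% with EIIIB and 42.9% with the 467-base form. How far read length sets the shares was not tested.

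**Figure D2:**
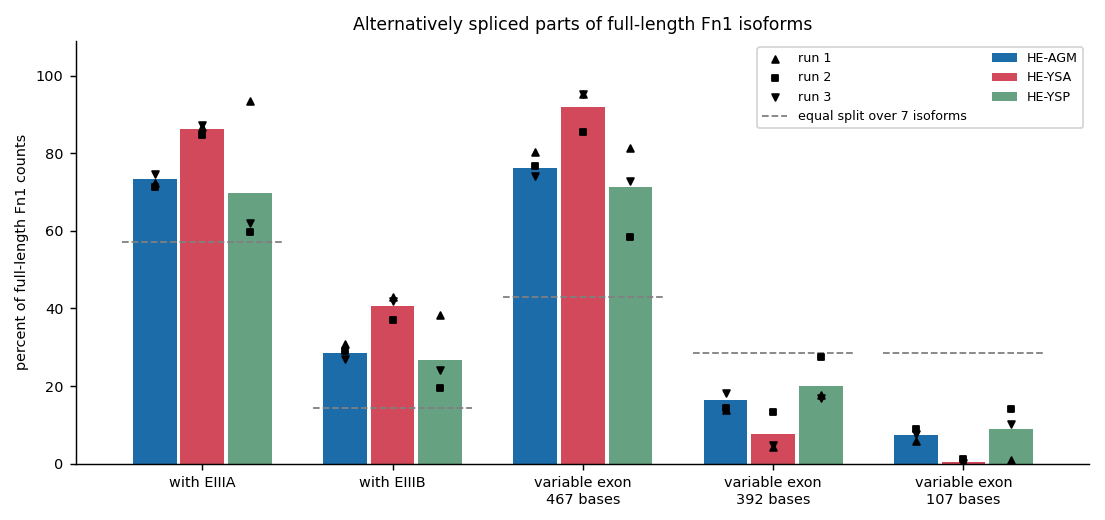
Percent of full-length Fn1 counts on isoforms that hold each alternatively spliced stretch. Bars are the summed cells of the 3 HE populations, symbols are the nanopore runs and dashed lines are what an equal split over the 7 isoforms gives. HE-YSA lies above HE-AGM in every run for EIIIA, and the HE-YSP runs are spread from 59.7% to 93.5%.

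Collagen IV is a trimer of 2 α1 chains and 1 α2 chain, encoded by Col4a1 and Col4a2. These genes are neighbours that start head to head on chromosome 8, with RefSeq starts at 11312826 on the minus strand and 11312805 on the plus strand of GRCm38.p6, so that their first exons overlap by 22 bases. Col4a2 was 352 CPM in HE-AGM, 158 CPM in HE-YSA and 98.1 CPM in HE-YSP, with counts in 45, 38 and 22 cells. The log2 ratio was 1.16 (0.97 to 1.34) over HE-YSA and 1.84 (1.61 to 2.09) over HE-YSP. Both lie among ordinary long transcripts, since 241 of 381 and 145 of 382 other genes of the class were higher. The HE-YSP level differed among runs, at 24.5, 179 and 107 CPM.

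Col4a1 was 200 CPM in HE-AGM, 133 CPM in HE-YSA and 118 CPM in HE-YSP. The HE-AGM runs were close, at 196, 206 and 200 CPM. Its log2 ratios of 0.59 (0.38 to 0.81) and 0.76 (0.53 to 1.00) stayed under 2-fold and near the medians of 0.53 and 0.62 for genes of 2000 to 3000 bases. Most Col4a1 counts were on Col4a1-206, a transcript of 1170 bases that spans 7 of the 52 exons of the full-length Col4a1-201 and ends 1096 exonic bases before its 3′ end. It took 67.0%, 72.3% and 70.6% of Col4a1 counts. Isoforms of at least 2000 bases held 27.6% of those of HE-AGM, 11.5% of those of HE-YSA and 8.12% of those of HE-YSP. Counted on these alone, HE-AGM was higher by 1.84 (1.29 to 2.48) and 2.49 (1.79 to 3.37). All genes on isoforms of at least 2000 bases had medians of 1.10 and 1.13. On the shorter isoforms HE-AGM was higher by 0.30 (0.07 to 0.54) and 0.42 (0.17 to 0.67). Col4a2 had 96.3% to 100% of its counts in the 3 populations on the 6450-base Col4a2-201. Its short forms, Col4a2-202 and Col4a2-203, took the other 43 counts in HE-AGM, and isoforms of at least 2000 bases took 83.7% of Col4a2 counts in late HE-AGM. The unequal ratios of the 2 chains therefore come with a difference in the length of what was counted, and the chain ratio was not read from these levels.

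Col4a1 and Col4a2 varied together over the cells of a population, with early and late clusters pooled. The Pearson correlation of their log2(CPM + 10) values was 0.59 over 49 HE-AGM cells, 0.32 over 52 HE-YSA cells and 0.43 over 49 HE-YSP cells, with both counted in 43, 28 and 18 cells. Both genes were lower in the late than in the early cluster of each population, and correlation inside a cluster was not tested. Cells of 1 population share tissue and library project and differ in depth, and the values are descriptions.

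The laminins of the vascular basement membrane are trimers of an α, a β and a γ chain, for which Lama4, Lamb1 and Lamc1 stand here. Lamb1 was 65.5 CPM in HE-AGM, 23.1 CPM in HE-YSA and 1.79 CPM in HE-YSP, where 3 counts in 2 of 49 cells make up the level. It was counted in 35 HE-AGM and 14 HE-YSA cells. The log2 ratio of HE-AGM to HE-YSP was 4.97 (3.62 to 7.48), and 9 of 382 other genes of the class were higher. HE-YSA exceeded HE-YSP by 3.48 (2.04 to 6.02), from 44 against 3 counts, and 3 of 196 other genes were higher. HE-AGM over HE-YSA was 1.49 (1.03 to 2.01), near the class median of 1.41. Like Fn1, Lamb1 fell in the order HE-AGM, HE-YSA, HE-YSP and was past 2-fold between the yolk sac populations.

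The partner chains did not separate the yolk sac populations. Lamc1 was 64.3 CPM in HE-AGM against 19.4 CPM in HE-YSA and 16.1 CPM in HE-YSP, and the interval of the log2 ratio of HE-YSA to HE-YSP was -0.49 to 1.04. Its log2 ratios of 1.71 (1.22 to 2.27) and 1.97 (1.41 to 2.63) from HE-AGM were exceeded by 103 of 363 and 105 of 369 other genes of 4000 to 5000 bases. That class is not resolved for Lamc1. Its 7622-base Lamc1-201 and 1447-base Lamc1-204 were given the same estimate in 64 of 64 cells, so its mean length is only their average. Lama4, the α chain typical of endothelium, was 21.9 CPM in HE-AGM from 13 of 49 cells, 4.20 CPM in HE-YSA from 8 counts and 2.99 CPM in HE-YSP from 5 counts. HE-AGM was higher by 2.31 (1.33 to 3.65) and 2.75 (1.59 to 4.54), and 66 of 381 and 60 of 382 other genes of at least 5000 bases were higher still. All HE-YSP counts were in run 3, and without that run the second ratio was 5.29. Its yolk sac levels lie near the 3-count floor of 1.57 and 1.79 CPM.

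Perlecan, encoded by Hspg2, is the longest of these transcripts at 14187 bases. It was 216 CPM in HE-AGM, counted in 46 of 49 cells, 12.1 CPM in HE-YSA, in 9 of 52 cells, and 27.5 CPM in HE-YSP, in 11 of 49 cells. Over HE-YSA the log2 ratio was 4.13 (3.56 to 4.83), with 4.15, 3.22 and 4.73 in the runs, and 3 of 381 other genes of at least 5000 bases were higher. Over HE-YSP it was 2.96 (2.54 to 3.43), with 1.12, 3.24 and 5.01 in the runs. In HE-YSP a single cell held 56.5% of the Hspg2 counts, and 71.7% of them were on Hspg2-202, an 820-base transcript of 2 exons, against 21.6% in HE-AGM and 17.4% in HE-YSA. On isoforms of at least 2000 bases HE-AGM had 563 counts, HE-YSA 19 and HE-YSP 13, which gave log2 ratios of 4.05 and 4.39 from HE-AGM and 0.34 between the yolk sac populations. The lower pooled level of HE-YSA against HE-YSP, a log2 ratio of -1.17 (-1.98 to -0.44), was thus absent on the long isoforms, and it was 0.10 without run 1.

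Nid1 encodes nidogen-1, the link between laminin and collagen IV. It was 106 CPM in HE-AGM, 38.8 CPM in HE-YSA and 73.0 CPM in HE-YSP. The runs do not give 1 direction. HE-AGM over HE-YSA was 0.43, -0.44 and 3.93 in the runs around a pooled 1.45 (1.09 to 1.83), and over HE-YSP 1.11, -1.34 and 0.80 around 0.54 (0.24 to 0.85). The counting interval is much narrower than this spread. In its length class of 3000 to 4000 bases, with a median of 1.07 in both comparisons, 241 of 713 and 532 of 710 other genes were higher. Between 41.8% and 56.8% of Nid1 counts were on Nid1-203, a 646-base transcript of 3 exons. Only 6 of its bases lie outside the exons of the longest isoform, Nid1-201.

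**Figure D3:**
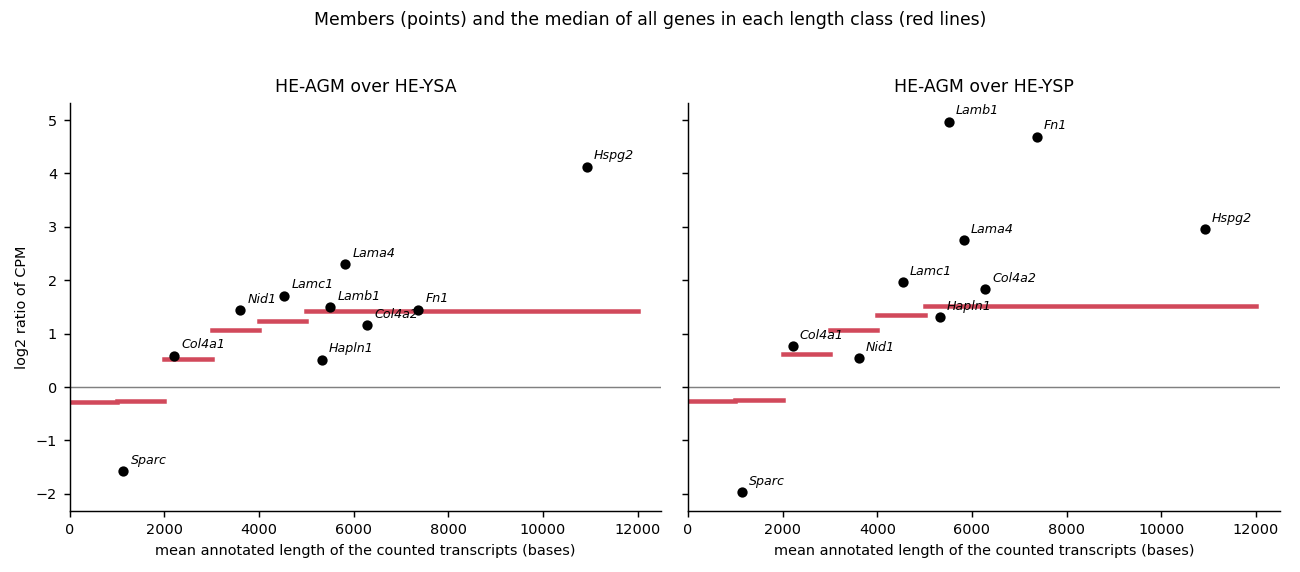
Log2 ratio of HE-AGM over each yolk sac population against the mean annotated length of the counted transcripts of a gene, in bases. Points are the members and red lines are the medians of all genes in each length class, which rise from -0.28 under 1000 bases to 1.42 above 5000 bases over HE-YSA. Hspg2 stands highest above its class over HE-YSA and Lamb1 and Fn1 over HE-YSP.

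Sparc was the only member that was higher in the yolk sac. Its level was 424 CPM in HE-AGM, 1264 CPM in HE-YSA and 1657 CPM in HE-YSP, with runs of 305 to 536, 1175 to 1438 and 1455 to 1802 CPM. It was counted in 49, 50 and 49 cells. The log2 ratio of HE-AGM was -1.58 (-1.67 to -1.48) to HE-YSA and -1.97 (-2.06 to -1.87) to HE-YSP, where genes of 1000 to 2000 bases had medians of -0.26 and -0.24. This difference lies in short transcripts. Sparc-205, a 741-base transcript with a retained intron at chr11:55395520-55402165, took 15.3% of the Sparc counts of HE-AGM cells, 62.0% for HE-YSA and 60.8% for HE-YSP, with no overlap between the AGM runs of 7.55% to 22.3% and the yolk sac runs of 57.2% to 65.3%. It has 5 exons, against 10 of the full-length Sparc-201, and its last exon ends 1020 exonic bases before that of Sparc-201.

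The 5′ end of Sparc-205 is what sets it apart from the spliced messenger RNA, and it is shown for that reason. It was read from the minus strand of GRCm38 at chr11:55402032-55402165. The 94 bases in capitals are intronic in Sparc-201 and the 40 in lower case open the next Sparc-201 exon.
Sparc-205 5′ end: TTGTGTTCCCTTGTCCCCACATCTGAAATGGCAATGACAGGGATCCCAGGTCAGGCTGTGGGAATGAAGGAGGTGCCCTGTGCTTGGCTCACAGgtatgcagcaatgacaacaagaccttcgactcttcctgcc

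On the isoforms of at least 2000 bases, Sparc-201 and Sparc-202, HE-AGM had the highest level. These took 250 CPM in HE-AGM, 151 CPM in HE-YSA and 175 CPM in HE-YSP. HE-AGM was higher by 0.73 (0.54 to 0.93) and 0.51 (0.32 to 0.71). All genes on such isoforms had medians of 1.10 and 1.13, so long Sparc stood below them. Reads that stop inside the transcript can be placed on a short annotated isoform that they fill, and whether the yolk sac counts on Sparc-205 are intron-holding transcripts or shortened reads of Sparc messenger RNA cannot be told apart from these estimates. The short isoforms were lower in HE-AGM by 2.68 and 3.09 on the log2 scale.

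**Figure D4:**
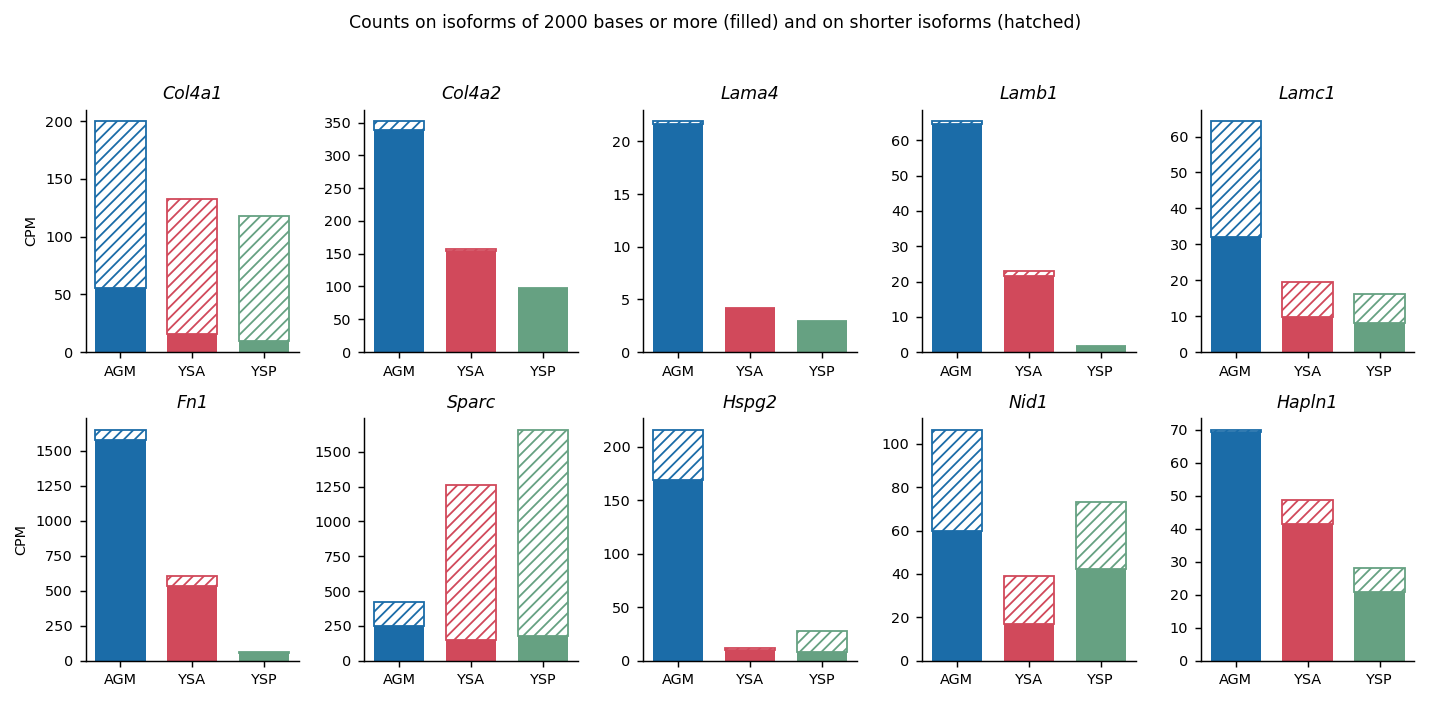
CPM of each member in the 3 HE populations, split into isoforms of at least 2000 bases (filled) and shorter ones (hatched). Bars start at 0. Sparc in the yolk sac and Col4a1 in all 3 populations are mostly short, and long Sparc is 250, 151 and 175 CPM.

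Hapln1 was 70.0 CPM in HE-AGM, 48.8 CPM in HE-YSA and 28.1 CPM in HE-YSP, counted in 33, 21 and 15 cells. The study names it among genes that mark HE, a choice made on the short-read dataset from which these cells were taken. Over HE-YSA the log2 ratio was 0.52 (0.17 to 0.88), below the class median of 1.42, and the runs gave -0.25, 0.42 and 1.32. Over HE-YSP it was 1.30 (0.86 to 1.80), with 2.09, 1.10 and 1.22, and 214 of 382 other genes of the class were higher. Nearly all AGM counts were on the 5715-base Hapln1-201, at 99.1%, against 84.9% and 74.5% in the yolk sac populations. Hapln1 differed between days of sorting and was highest at E9.5 in both of these. In HE-YSA it was 67.6 CPM in 2 cells of E9.0, 120 CPM at E9.5 and 25.01 CPM at E10.5, and in HE-YSP it was 30.9, 75.3 and 4.80 CPM. With yolk sac cells of E9.5 alone the log2 ratios were -0.79 and -0.13, and with those of E10.5 alone 1.54 and 3.70.

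From early to late clusters most matrix genes were lower, and the log2 ratio of late to early was below 0 for 9 of 10 in the AGM, for 8 in the artery-associated and for 6 in the plexus population. The median log2 ratio of late to early was -1.31 for HE-AGM, -0.94 for HE-YSA and -1.19 for HE-YSP, where the medians of all genes were -0.01, 0.01 and 0.11. In HE-AGM 7 of 10 members were past 2-fold lower, where 13.4% of 7405 genes were. In HE-YSA 3 of the 8 that reached 20 CPM passed, where 12.7% of 6346 genes did, and in HE-YSP 5 of 7, where 13.2% of 6277 genes did. The HE-YSA count was 7 without run 1 and 1 without run 2, where 18.5% and 13.6% of all genes passed. Members above 0 were Hapln1 in HE-AGM, Nid1 and Lama4 in HE-YSA, at 0.45 and 0.31, and Lama4, Lamb1, Lamc1 and Hapln1 in HE-YSP, at 0.54, 0.79, 0.36 and 0.23. The counting interval of each of these includes 0. These comparisons lie inside 1 tissue and mostly 1 library project, but embryonic days were not matched. Early HE-YSP had very few cells of E9.5 and late HE-YSP had many. The HE-YSP median was -0.68 with cells of E9.5 alone and -1.74 with those of E10.5 alone. The mean counted length fell from 1553 to 1443 bases in HE-AGM, from 1193 to 1151 in HE-YSA and from 1182 to 1142 in HE-YSP.

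Col4a2 showed the drop in each population. It was 526 CPM in early and 110 CPM in late HE-AGM, 226 and 104 CPM in HE-YSA, and 176 and 17.1 CPM in HE-YSP. The log2 ratios were -2.25 (-2.51 to -2.01), -1.11 (-1.47 to -0.77) and -3.32 (-4.28 to -2.58), and were below 0 in every run. It was counted in 29 of 29 early and 16 of 20 late HE-AGM cells, and in 17 of 25 early and 5 of 24 late HE-YSP cells. Col4a1 went from 268 to 105 CPM, from 177 to 97.7 CPM and from 190 to 42.6 CPM. In HE-YSA its runs gave 0.01, -2.03 and -1.44, so the first run showed no drop.

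Sparc was 561 and 233 CPM in early and late HE-AGM, 2095 and 608 CPM in HE-YSA, and 2551 and 731 CPM in HE-YSP. The log2 ratios of -1.27, -1.78 and -1.80 were below 0 in all 9 population and run pairs. Lamb1, Nid1 and Hspg2 were lower in late HE-AGM by 2.26, 2.36 and 1.18 on the log2 scale, with every run below 0. Fn1 was lower by less than 2-fold. It was 1862 and 1348 CPM in HE-AGM, 684 and 539 CPM in HE-YSA and 81.2 and 45.1 CPM in HE-YSP, with log2 ratios of -0.47 (-0.55 to -0.38), -0.34 (-0.51 to -0.17) and -0.84 (-1.46 to -0.25). Hapln1 went the other way in HE-AGM, at 63.4 and 79.1 CPM, though the interval of its log2 ratio, -0.07 to 0.70, includes 0.

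**Figure D5:**
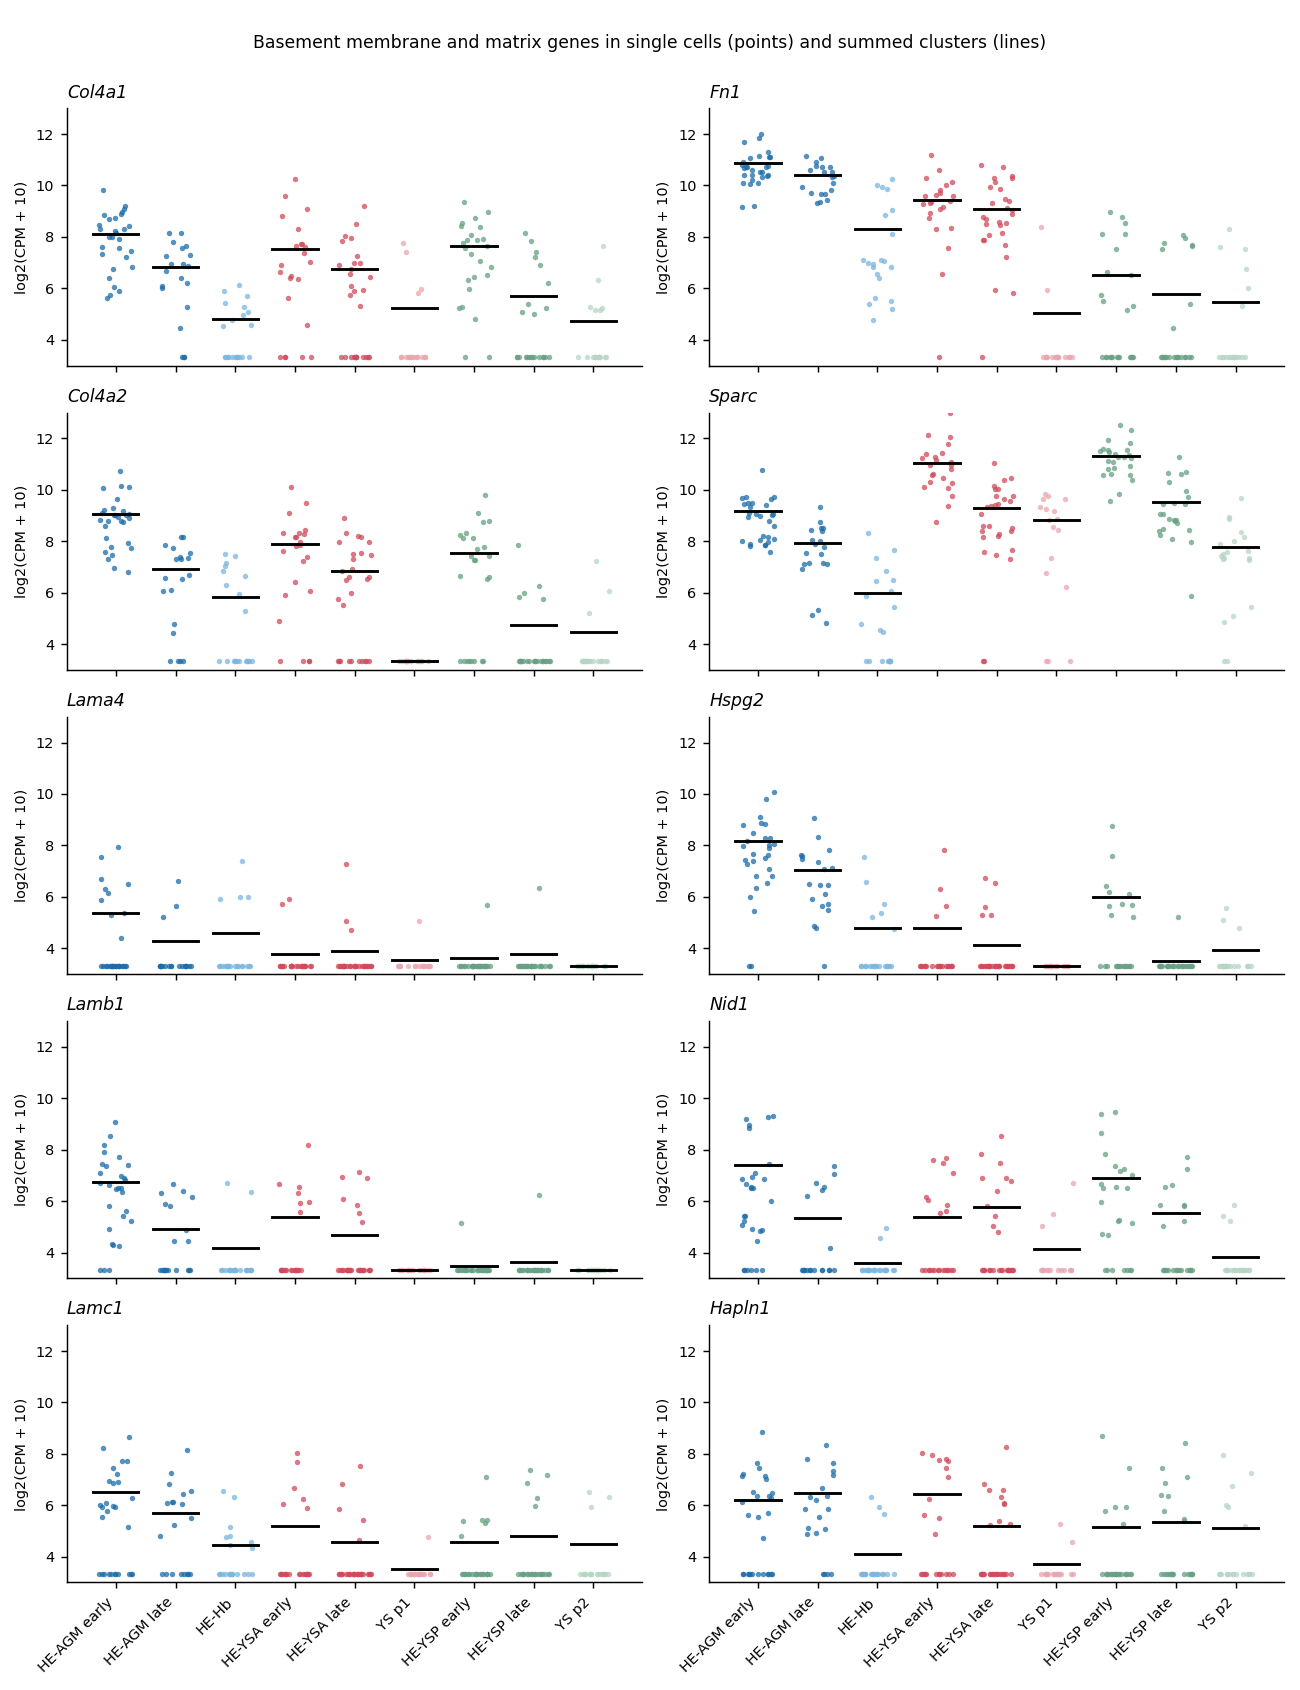
Log2(CPM + 10) of the members in the 9 clusters, from early to late HE to HE-Hb or progenitors in each arm. Points are single cells and lines are the summed clusters. Summed Fn1 is highest in the early and late HE-AGM clusters, and Col4a2 and Sparc step down from each early cluster to the late one.

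In HE-Hb 9 of the 10 matrix genes were lower again than in late HE-AGM. The median log2 ratio was -2.13 against -0.06 for 6971 genes, and 9 members reached 20 CPM in either cluster and were past 2-fold lower, where 13.9% of all genes were. Fn1 was 309 CPM against 1348 CPM, with a log2 ratio of -2.12 (-2.27 to -1.98), and it was still counted in 21 of 21 HE-Hb cells. Sparc was 53.0 against 233 CPM, Hspg2 17.9 against 124 CPM and Hapln1 7.29 against 79.1 CPM, with Hapln1 counted in 3 of 21 cells. Nid1 was 1.99 CPM from 3 counts, against 30.9 CPM, a log2 ratio of -3.75 (-6.29 to -2.32). Lama4 stayed under 20 CPM in both clusters, at 13.9 and 9.35 CPM.

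In the yolk sac progenitors p1, 6 members had 0 to 2 counts, under the floor of 3. In p2 Lama4 and Lamb1 had 0 counts and Nid1 had 3, while Sparc was 209 CPM, Fn1 34.1 CPM and Hapln1 24.6 CPM. Over late HE-YSA, p1 had a median log2 ratio of -2.74, or -2.11 with genes at 0 counts set to their bound, against 0.05 for 6182 genes. Of 6 members that reached 20 CPM, 5 were past 2-fold lower, where 14.8% of all genes were. The count was 3 without run 1 and 8 without run 3, where 13.5% and 24.8% of all genes passed. Col4a2 had 0 counts in p1 against 111 in late HE-YSA, which makes it at least 22.8-fold lower with a floor of 3 counts in the cluster. Fn1 was 22.8 CPM against 539 CPM, and 93.3% of its p1 counts were in 1 of 17 cells. Sparc kept 442 CPM against 608 CPM, a log2 ratio of -0.46 (-0.67 to -0.26), with -1.86, -0.34 and 0.09 in the runs. Over late HE-YSP, p2 had a median of -0.94, or -0.49 at the bound, against 0.03 for 6082 genes, and 3 of 5 members were past 2-fold lower, where 13.4% of all genes were. Those were Col4a1, Sparc and Nid1, with log2 ratios of -1.34, -1.80 and -2.96. Late HE-YSP was already low in collagen IV and fibronectin.

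Endothelial genes moved with the matrix genes along this order. The 18 endothelial markers summed to 5709 and 2863 CPM in early and late HE-AGM, 7123 and 3862 CPM in HE-YSA, 8343 and 3039 CPM in HE-YSP, and 841, 1692 and 946 CPM in HE-Hb, p1 and p2. The 16 hemogenic and early blood genes went from 1088 to 1796 CPM, from 695 to 1319 CPM and from 387 to 983 CPM. Across single cells, log2(CPM + 10) of Col4a2 had a Pearson correlation with Cdh5, the endothelial cadherin, of 0.42, 0.39 and 0.48 over the cells of HE-AGM, HE-YSA and HE-YSP, and with Myb, a transcription factor of blood progenitors, of -0.51, -0.43 and -0.36. Myb was counted in 34, 11 and 10 cells of HE-AGM, HE-YSA and HE-YSP, and together with Col4a2 in 30, 5 and 1. The yolk sac values with Myb thus rest mostly on cells without Myb counts. Early and late cells were pooled in these correlations. CDH5 was part of the AGM gate. The comparison of early with late clusters did not separate loss of matrix transcripts from loss of endothelial transcripts as a whole.

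Markers of other cell types were also counted in the HE populations. Mesenchymal markers summed to 16.9, 37.2 and 22.1 CPM in HE-AGM, HE-YSA and HE-YSP, with 8 of 16 at 0 in each, and endodermal markers to 30.6, 16.8 and 44.3 CPM. Macrophage markers summed to 36.0, 20.99 and 120 CPM, and megakaryocyte markers to 264, 57.2 and 133 CPM. Itgb3, which is also a matrix receptor, held most of the megakaryocyte sum in HE-AGM and little of it in HE-YSP. The order of the megakaryocyte sums therefore rests on Itgb3. Erythroid genes summed to 225, 44.6 and 26.9 CPM, and 1 early HE-AGM cell reached 11877 CPM. Without that cell, a setting chosen after the data were seen, the members' median log2 ratios of HE-AGM were 1.40 and 1.84. The part of these RNAs in the results was not tested.

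The rest of the basement membrane had medians of the same direction as the members, from the few genes that reached 20 CPM. Of 25 other components, 7 reached 20 CPM in HE-AGM or HE-YSA and 4 were past 2-fold higher in HE-AGM, with a median log2 ratio of 1.52, where 28.6% of all genes and 67.5% of genes of at least 5000 bases passed. Over HE-YSP 8 reached it, 7 were higher and 1 was lower, with a median of 2.03, where 30% and 15.7% of all genes passed. Between the yolk sac populations the median of 5 was 0.58. Col18a1, the collagen that releases endostatin, was 1194, 726 and 486 CPM in HE-AGM, HE-YSA and HE-YSP. Agrn, another heparan sulfate proteoglycan, was 90.1, 30.4 and 11.4 CPM, and Pxdn, the peroxidase that crosslinks collagen IV, was 144, 39.4 and 41.9 CPM. AGM levels of single genes in this and the following lists were not set against genes of like length.

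Of 30 interstitial matrix genes 5 reached 20 CPM, with a median log2 ratio of 1.46 over HE-YSA and 3.57 over HE-YSP, and 4 were past 2-fold higher in each, where 28.6% and 30% of all genes were. The 4 are not the same, since Emilin1 had log2 ratios of 1.82 and 0.62 and Mfap2 of -0.34 and 3.37. Of 3 that reached 20 CPM in HE-YSA or HE-YSP, Mfap2 and Fbn1 were past 2-fold higher in HE-YSA and Emilin1 lower, where 7.84% and 7.14% of all genes passed. Mfap2, a microfibril protein, was 120, 152 and 11.4 CPM in HE-AGM, HE-YSA and HE-YSP, with a log2 ratio of HE-YSA to HE-YSP of 3.71 (3.07 to 4.50), and Fbn1, which encodes fibrillin-1, was 75.4, 27.3 and 2.99 CPM, with 3.07 (1.88 to 4.87). Among collagen and matrix processing genes, 29 of 30 listed were found, and 7 of 13 and 10 of 14 were past 2-fold higher in HE-AGM over HE-YSA and HE-YSP, with medians of 1.08 and 1.92 and the same shares of all genes as above. Tgm2, a crosslinking transglutaminase that acts on fibronectin, was 199, 79.8 and 16.7 CPM, and Serpinh1, the collagen chaperone, 184, 64.0 and 43.1 CPM. Tgm2 was higher in HE-YSA than in HE-YSP by 2.23 (1.66 to 2.89).

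The receptors for this matrix differed in both directions. Of 25, 10 reached 20 CPM in HE-AGM or HE-YSA, 3 were past 2-fold higher and 2 lower, with a median log2 ratio of 0.50, where 28.6% and 13.6% of all genes passed. Over HE-YSP 5 of 11 were higher and 2 lower, with a median of 0.93, where 30% and 15.7% passed. Between the yolk sac populations 5 of 11 were higher in HE-YSA and 4 lower, where 7.84% and 7.14% passed. Itga5, the α chain of the main fibronectin receptor, was 171, 122 and 40.7 CPM in HE-AGM, HE-YSA and HE-YSP, and Itga4, of another fibronectin-binding integrin, 62.5, 22.04 and 4.79 CPM. Both had the order of Fn1. Itgb3, which is also on the megakaryocyte list, was 249, 20.99 and 5.98 CPM. The hyaluronan receptor Lyve1 and the scavenger receptor Stab2, which also binds hyaluronan, had the reverse order, at 1.502, 39.4 and 667 CPM and at 0.300, 68.7 and 432 CPM. In single cells Fn1 and Itga5 were nearly uncorrelated, with Pearson values of -0.04, 0.09 and 0.18.

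Likeness over the 9 clusters was measured by the Pearson correlation of log2(CPM + 10) among 3084 genes with at least 100 CPM in a cluster. The genes most like Fn1 were Vwf, Agrn and Cdkn1c, each at 0.97. Those most like Col4a1 were Ctnna1 at 0.97 and Myzap and Aplp2 at 0.96. Among those most like Sparc were Ralb and Eva1b at 0.97, and Hapln1 was most like Pdlim7 at 0.94, F2r at 0.90 and Nupr1 at 0.86. The 9 points share library project within a tissue.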

How the data were processed

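The table holds estimated counts per transcript, which the authors made by basecalling nanopore reads of Smart-seq2 cDNA, trimming and splitting them, aligning them with minimap2 (2.26 in the submitters' processing notes) to mouse GENCODE transcripts with up to 10 alignments per read, and running NanoCount per cell. Of the members' counts above 0, 61.4% were not whole within 0.001. The authors' DESeq2 (1.40.2) results were not used here. Transcripts were summed to genes and cells to clusters as the labels give them. Ratios are log2 of CPM with 0.5 counts added. Cells under 17595 counts (the median of 38780 less 1 MAD) were left out, as in the study's methods. Genes entered a comparison with at least 20 CPM in 1 group. The 2-fold limit is a rule of size, since each cluster is 1 sample. The ratio step recovered known folds in simulated Poisson counts. These held no spread between cells or runs and no length step, so they check the arithmetic only. Exon coordinates are from GENCODE on GRCm38, where 64 of 66 member isoforms matched by ID and length. The members and gene lists were chosen with earlier results of these data known. Named genes of other lists are drawn from the 4 highest per list and those past 4-fold at 50 CPM, and the 3 genes most like 4 members, of which 1 is not reported here. Tables were handled with pandas 2.3.3 and numpy 2.4.6 and intervals with scipy 1.17.1 under Python 3.11.15, and scaling alternatives used edgeR 4.0.16 and DESeq2 1.42.0 in R 4.3.3. In 3 yolk sac cluster cells the library name gives another tissue or project, and they were kept. The alternatives were other library-size limits, run, project, day and cell choices, thinning, pseudocounts, filters, folds, scalings and transcript classes.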

Additional observations from a re-analysis of the deposited data

How the results depend on the processing

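Over 162 alternative values of the members' median log2 ratios, 160 kept their sign (HE-YSA over HE-YSP turned to -0.04 without run 2 and to -0.17 with E10.5 cells) and 150 moved by less than the spread of the 3 runs. For single members, 522 of 540 ratios kept their sign. In both counts some settings cannot touch a comparison, such as the AGM project for ratios within the yolk sac, and these count as kept. Sparc in HE-YSA over HE-YSP turned from -0.39 to 0.51 with E9.5 cells. Sparc turned to 0.73 and 0.51 for HE-AGM over HE-YSA and HE-YSP on isoforms of at least 2000 bases, a setting chosen after the data were seen. All genes on such isoforms had medians of 1.10 and 1.13. Hspg2 in HE-YSA over HE-YSP turned to 0.34 on those isoforms, to 0.36 on protein-coding transcripts and to 0.10 without run 1, against -1.84 and -1.53 without the other runs, and Hapln1 in HE-AGM over HE-YSP to -0.13 with yolk sac cells of E9.5. Leaving out 1 run gave 3 to 7 members higher in HE-AGM over HE-YSA (3 without run 3), 1 to 7 lower in late HE-YSA (7 without run 1, 1 without run 2) and 3 to 8 lower in p1 (3 without run 1, 8 without run 3), and medians of -1.64 to -1.01 in late over early HE-YSP and -1.14 to -0.50 in p2. Within the yolk sac, the count lower in HE-YSA than in HE-YSP went from 1 to 0 by means of single cells, by thinning, without the highest cell of each gene, with E9.5 cells and at 3-fold, and to 2 at 1.5-fold. The count higher was 4 with E9.5 cells and at 1.5-fold and 1 without the highest cell. Of all genes, 15.8% were higher and 18.2% lower with E9.5 cells, and 15.6% and 15.2% at 1.5-fold. Members lower in late HE-YSA were 5 by means of single cells, 6 with E10.5 cells, 6 at 1.5-fold and 1 at 3-fold. The shares of all genes were 12.7%, 15.2%, 21.8% and 6.10%. At 3-fold 3 members were higher and 0 lower in HE-AGM over HE-YSA, where 15.9% and 5.60% of all genes passed. In late HE-AGM 4 were lower, where 6.47% passed. With AGM cells of 1 project the medians were 1.55 over HE-YSP and -1.17 in late over early. With E9.5 cells the medians were -0.68 in late HE-YSP (3 lower), -0.38 in p1 (3 lower) and -2.13 in p2 (5 lower). There 26.7%, 22.1% and 18.9% of all genes were lower, and early HE-YSP and p1 had very few cells of that day. With E10.5 cells the median was -1.74 in late HE-YSP. Protein-coding transcripts left 0 members lower in HE-AGM over HE-YSA and HE-YSP, where 12.3% and 14.8% of all genes were. With 5 counts added the p2 median was -0.34. A filter of 5 CPM gave 8 lower in p1, where 24.7% of all genes were. Without a filter 9 were lower in p1 and 5 in p2, where 21.7% and 22.1% were. On isoforms of at least 2000 bases 0 members were lower in HE-AGM over HE-YSA and HE-YSP, where 3.34% and 4.98% of all genes were. The median over HE-YSP was 2.22 against 1.13 for all genes, and that of late over early HE-AGM -1.56 against -0.17. On these isoforms 3 were lower in late HE-YSP, 2 in p1 and 1 in p2, where 22.7%, 23.1% and 20.1% were. The p2 median was -0.48. TMM shifted HE-AGM over HE-YSP by -0.12 and median-ratio factors shifted both AGM ratios by -0.19 and -0.18, with no change of sign of a median. No test was run, paired or not, and ratios within each run are given as descriptions. Depth limits the members under about 20 counts in a cluster, such as Lama4 in late HE-AGM and all yolk sac clusters, and most members in p1 and p2.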

Other observations

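Mmp2, a gelatinase that cuts collagen IV and fibronectin, was 177 CPM in HE-AGM, 66.7 CPM in HE-YSA and 27.5 CPM in HE-YSP. Its log2 ratios of HE-AGM were 1.41 (1.13 to 1.70) and 2.67 (2.25 to 3.15), past 2-fold as 28.6% and 30% of all genes were, and the log2 ratio of HE-YSA to HE-YSP was 1.27 (0.78 to 1.80). Timp3, a protease inhibitor that stays bound to the matrix, was 61.0, 9.45 and 7.18 CPM. Its log2 ratios of HE-AGM were 2.65 (1.99 to 3.47) and 3.03 (2.25 to 4.06), past 2-fold at the same shares of all genes. The AGM ratios of Mmp2 and Timp3 were not set against genes of like length. Emilin1, an elastic fibre protein, was lowest in HE-YSA, at 184, 52.0 and 120 CPM, and HE-YSA was below HE-YSP in each run. Fbln1, which binds fibronectin, was 49.9, 52.0 and 17.3 CPM. Stab1, a scavenger receptor that takes up SPARC, was 62.9, 13.1 and 76.0 CPM.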
